A study of Mus musculus with 20 samples.

Results

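The 42 genes described here encode the machinery by which a presynaptic terminal stores and releases transmitter: 10 vesicle membrane proteins, 9 synaptotagmins and Doc2 proteins, 9 proteins of fusion, 7 of the active zone and of vesicle priming, 4 Rab3 GTPases and effectors, 2 vesicular glutamate transporters and 1 GTPase of vesicle retrieval. They were taken by name from a fixed list, and each was found by its Ensembl identifier among the 47729 identifiers of the count table. All 42 were among the 16692 genes left after removal of low counts. RNA was sequenced from the hippocampus of male C57BL/6 mice in 20 libraries, 5 in each of 4 groups: 5 months in a standard cage (5mSC), 5 months in an enriched environment (5mEE), 24 months in a standard cage (24mSC) and 24 months in an enriched environment (24mEE). According to the methods of the study the enriched cages were larger and held running wheels, tubes and climbing platforms, so physical activity and novelty were not separated, and the old enriched mice had entered them only late in life. The study's methods do not describe enriched mice of 5 months. The labels do not say whether a library held 1 or several animals. In the study's methods RNA was extracted and made into libraries separately for each sample, with group sizes given in mice. The p values measure the spread between libraries.

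Synaptic vesicles are filled with transmitter, docked at the active zone by scaffold proteins such as bassoon, piccolo and the RIM proteins, and primed by Munc13 proteins. The SNARE proteins synaptobrevin (Vamp1, Vamp2), syntaxin-1A (Stx1a) and SNAP-25 (Snap25) pull vesicle and plasma membrane together, complexins clamp and promote this step, and Doc2 proteins and many, though not all, synaptotagmins respond to calcium. Hippocampal principal cells and interneurons both use this machinery, with paralogues that differ between cell types: Slc17a7 (VGLUT1) is the main glutamate transporter of cortical and hippocampal principal cells, and Slc17a6 (VGLUT2) that of thalamic and subcortical neurons.

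None of the 42 genes passed edgeR's quasi-likelihood test at an adjusted p under 0.05 in any of the comparisons, whether of age, of environment or of their interaction, against 0 to 0.803% of all genes. The clearest separations were between the 2 groups of old mice, where 6 of the 42 genes had 5 libraries wholly above or below the other 5, against 3.43% of all genes. Stx1a, Rab3b, Doc2a and Syngr3 were lower and Doc2b and Syt12 higher in 24mEE. Which of these genes passed depended on the model, as given below.

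Upstream sequence is shown for Stx1a and Rab3b because they were the genes lowered in 24mEE that passed in a fit of the old groups alone. A window 250 bases before to 50 after the RefSeq start (GRCm38.p6) was found for 32 of the 42 genes. The 250 upstream bases are printed 5′ to 3′ on the strand of the gene, at chr5:135023232-135023481 (plus strand) for Stx1a and chr4:108878820-108879069 (plus strand) for Rab3b. Capitals mark TGACG, the core of a cAMP response element, and GGGCGG, the GC box bound by SP factors, on either strand. Both motifs were chosen after the values had been seen.

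Stx1a: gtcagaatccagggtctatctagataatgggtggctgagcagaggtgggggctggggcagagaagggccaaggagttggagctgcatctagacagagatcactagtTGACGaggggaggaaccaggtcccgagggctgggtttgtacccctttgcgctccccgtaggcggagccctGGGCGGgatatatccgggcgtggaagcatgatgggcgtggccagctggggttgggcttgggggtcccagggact

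Rab3b: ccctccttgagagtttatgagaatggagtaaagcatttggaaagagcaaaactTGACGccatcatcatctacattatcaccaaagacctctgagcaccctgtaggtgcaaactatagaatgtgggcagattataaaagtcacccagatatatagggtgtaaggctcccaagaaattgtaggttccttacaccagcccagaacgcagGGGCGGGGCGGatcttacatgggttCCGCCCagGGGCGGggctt

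TGACG occurred in the windows of 8 of the 32 genes and in 23% of the 27025 genes with a window. GGGCGG was found in 25 of the 32 against 38.2% of all. The 27025 genes include ones removed here for low counts, whereas all of the 32 were tested. The 2 sets are therefore unlike, and a difference between their shares cannot be credited to the presynaptic role. The complete element TGACGTCA was found only for Syn1 (2.03% of all genes), the left part of the RE1 element, TTCAGCACC, for Syn1 and Unc13a (0.433%), its right part, GGACAGC, for Rph3a and Unc13a (7.59%), and the EGR core GCGTGGG for Sv2b, Cplx3, Unc13a and Rims1 (5.74%). Both strands were searched, TGACG lies within TGACGTCA, and a match describes letters of the reference and not a bound site.

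The genes spanned a wide range of levels. Levels are CPM, counts divided by the TMM-scaled library total in M counts, and, where genes are compared with each other, CPM per kb of exon. Snap25 was the highest at a median of 378 CPM per kb, followed by Cplx2 (333), the retrieval GTPase Dnm1 (301), Slc17a7 (288), Cplx1 (285) and Vamp2 (272). The order of Snap25 over Cplx2 held in 17 of 20 libraries and that of Cplx2 over Dnm1 in 19, whereas Slc17a7 exceeded Cplx1 in only 9 and Cplx1 exceeded Vamp2 in 13. The lowest genes were Syn3 (0.692 CPM per kb), Cplx3 (1.41), Doc2a (2.14), Sv2c (3.11) and Unc13b (3.43). Of the paralogue pairs, Vamp2 stood at 272 CPM per kb beside 14.6 for Vamp1, Syt1 at 210.04 beside 3.53 for Syt2, Slc17a7 at 288 beside 3.70 for Slc17a6, and Unc13a at 30.9 beside 3.43 for Unc13b. A library with no count would allow up to 0.0880 to 0.274 CPM (3 counts, counting error only), below the lowest value of any of these genes in any library.

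**Figure D1:**
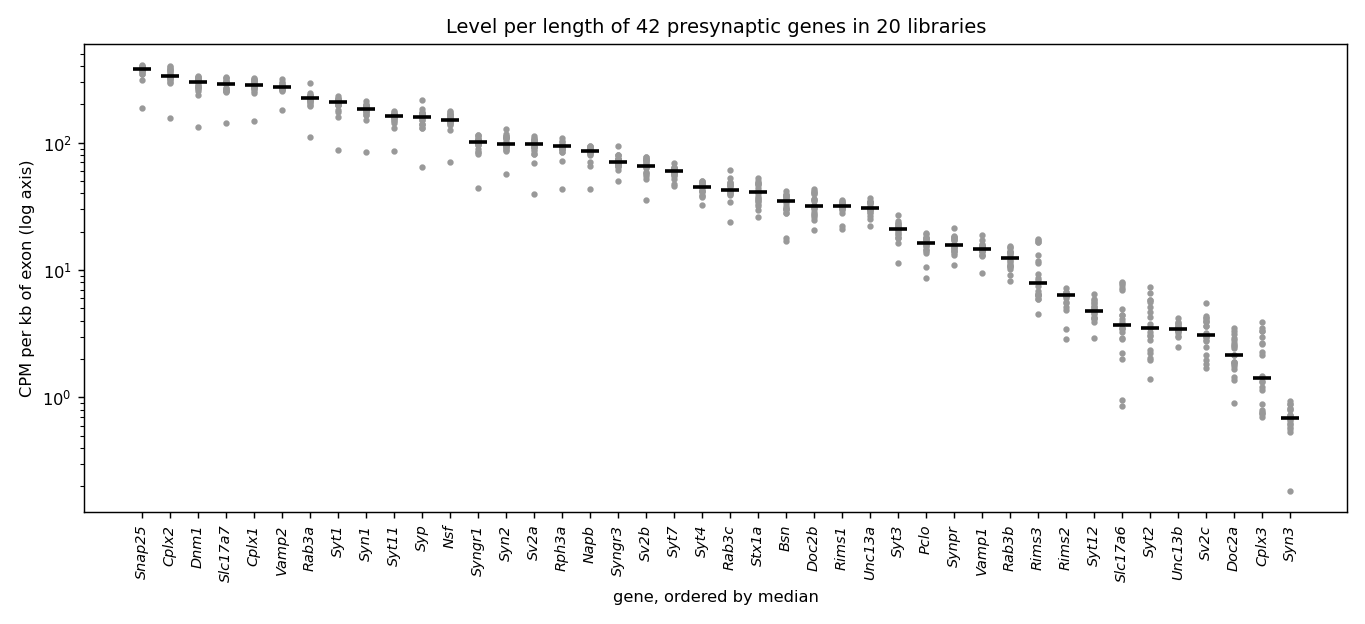
CPM per kb of exon (log axis) of each of the 42 genes in 20 libraries (grey points) with the median (black dash), ordered by the median. Snap25 stands at 378 and Syn3 at 0.692 CPM per kb, and Rims3, Slc17a6, Syt2 and Cplx3 spread more widely between libraries than their neighbours.

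Library totals ranged from 11 to 34.1 M counts. Library 5mSC replicate 3 stood apart: mitochondrial ribosomal RNA took 26.8% of its counts against 0.883 to 1.82% elsewhere, and the mean log2 CPM of 10 pan-neuronal markers was 8.04 against 8.37 to 8.65. The 42 genes together took 0.943% of its counts, against 1.95 to 2.37% in the other 19 libraries, and 32 of the 42 had their lowest value there. Their median difference from their own level over all libraries was −0.88 on the log2 scale. Other marker means also stood apart in that library. They were higher for thalamus and habenula (3.57 against 2.81 to 3.25 elsewhere) and choroid plexus (3.30 against 0.949 to 2.36). They were lower for GABA interneurons (5.24 against 5.85 to 6.35), oligodendrocytes (6.96 against 7.25 to 8.08), astrocytes (7.60 against 7.76 to 8.21) and microglia (4.63 against 4.94 to 5.44). CA2 (4.24 against 4.375 to 4.95), CA3 (5.17 against 5.44 to 5.97) and, narrowly, neocortex (3.69 against 3.71 to 4.64) were lower too. Dentate granule cells (5.26), CA1 (6.31) and endothelium (4.73) lay within the range of the others. The part of these tissues and cells in its low values was not tested. Snap25 was at 1272 CPM there and at 2115 to 2756 CPM in the others. Library 5mSC replicate 1 had the lowest value of 7 genes, among them several with long transcripts: the active zone genes Pclo (196 CPM against 239 to 440.4 in the others), Rims2 (29.7 against 35.7 to 74.4) and Unc13a (281 against 319 to 467), and Syn3 (2.27 against 6.57 to 11.5). The same library had the highest Syp (1127 CPM) and Rab3a (650.2 CPM). Syp, Rab3a, Syn3 and Snap25 were chosen here after their values were seen. Comparisons with 5mSC are therefore given with and without these 2 libraries. Replicate 1 was set apart on the values of the 42 genes themselves. Its mitochondrial ribosomal RNA (1.44% of counts) and its pan-neuronal mean (8.61) lay within the ranges of the other libraries. Smaller differences from 5mSC without it follow in part from that choice, so counts without replicate 3 alone are also given. In RNA of whole tissue, fewer neurons and less RNA per neuron cannot be told apart.

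**Figure D2:**
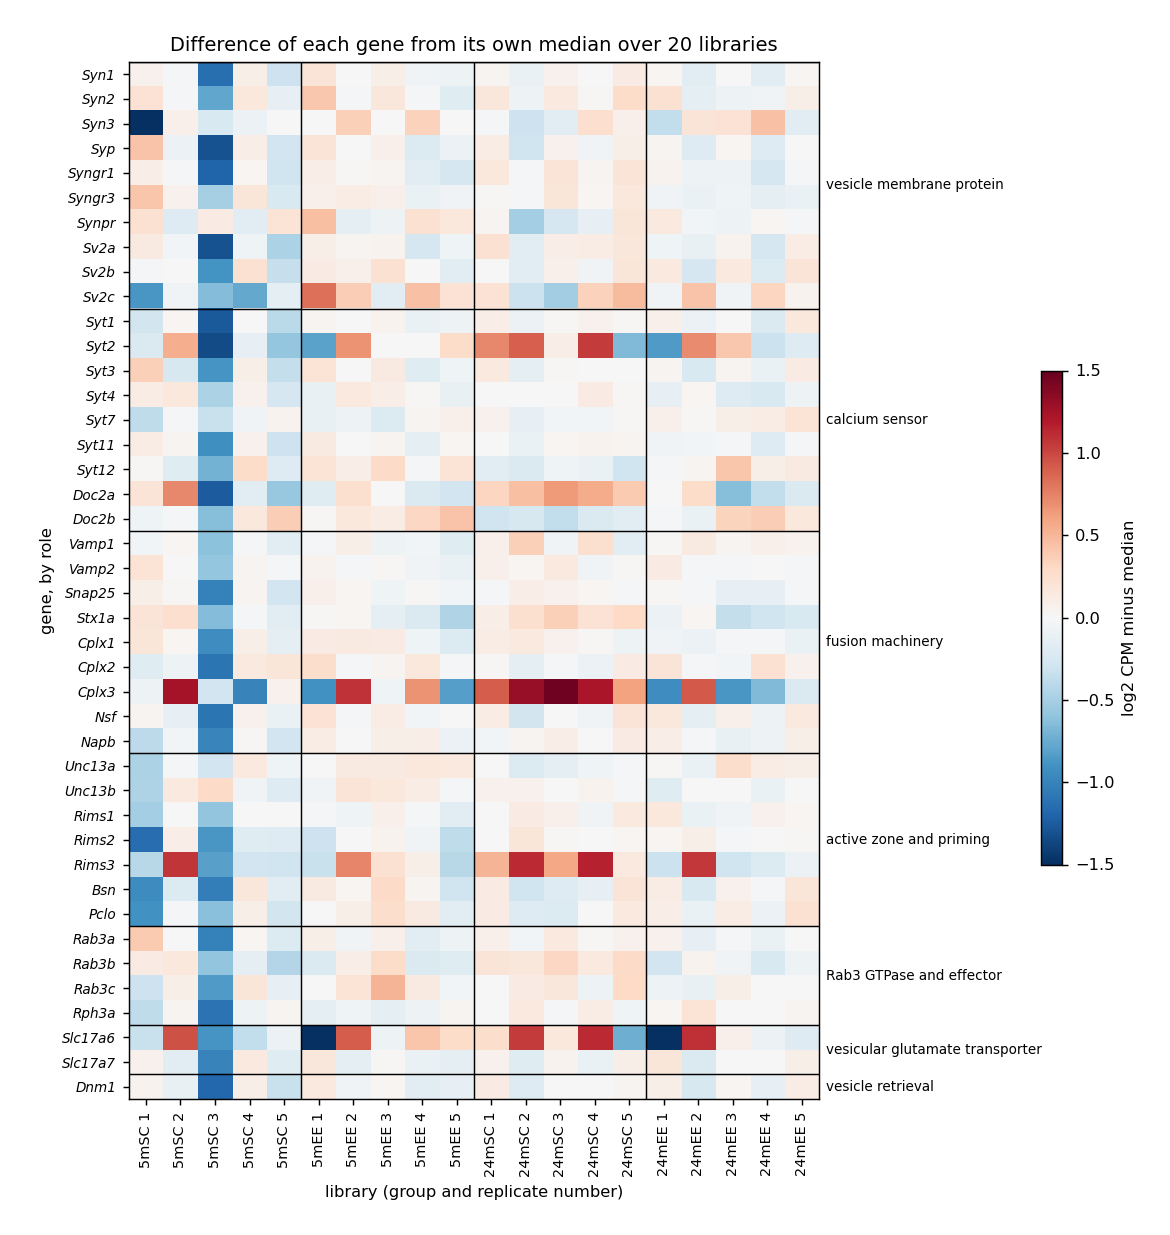
Difference of each gene (rows, by role) from its own median log2 CPM, in each of the 20 libraries (columns); colours end at −1.5 and 1.5. The column of 5mSC replicate 3 is low in nearly every role, replicate 1 of 5mSC is low in the active zone genes, and Cplx3, Rims3, Slc17a6 and Syt2 vary between libraries of the same group.

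The old mice in the 2 kinds of cage, 24mEE and 24mSC, address enrichment late in life. With edgeR 0 of the 42 genes passed, as did 0% of all 16692 genes. At an unadjusted p under 0.05 there were 6 of 42, against 6.21% of all genes. The 2 higher genes compare with 2.22% of all genes and the 4 lower with 3.99%. The groups without overlap, 2 higher and 4 lower in 24mEE, compare with 1.5% and 1.93% of all genes. The median log2 fold change of the 42 genes was −0.04 and that of all genes −0.0017, with 14 genes positive and 28 negative.

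Stx1a, the plasma membrane SNARE syntaxin-1A (ENSMUSG00000007207, GRCm38 chromosome 5, 135023482 to 135051100), had 117, 128, 140.0, 126 and 134 CPM in 24mSC and 103, 111, 84.8, 88.5 and 92.8 CPM in 24mEE. Every enriched library was below every standard library. The means were 129 ± 8.61 and 96.0 ± 10.8 CPM (SD, n = 5 each), and the log2 fold change was −0.43 ± 0.13 (SE; edgeR adjusted p = 0.405). Young mice overlapped the old enriched group, at 106 ± 24.0 CPM in 5mSC and 98.4 ± 13.1 CPM in 5mEE.

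Rab3b, a vesicle GTPase of the Rab3 family (ENSMUSG00000003411, chromosome 4, 108879063 to 108943324), had 50.01, 49.2, 54.3, 48.4 and 53.2 CPM in 24mSC and 35.8, 45.2, 42.2, 37.2 and 41.5 CPM in 24mEE. The groups were separate, with a log2 fold change of −0.34 ± 0.13 (edgeR adjusted p = 0.566). An antisense gene shares 9% of its exons, and the reads carry no strand. Doc2a, a calcium sensor of spontaneous and asynchronous release (ENSMUSG00000052301, chromosome 7, 126847416 to 126852705), had 7.49, 8.21, 9.36, 8.80 and 7.86 CPM in 24mSC and 6.02, 7.27, 3.85, 4.65 and 5.17 CPM in 24mEE. The highest enriched library lay just under the lowest standard one, and the log2 fold change was −0.63 ± 0.23 (edgeR adjusted p = 0.566). Of the exons of Doc2a, 39.4% overlap Ino80e on the opposite strand, so its reads cannot be fully assigned.

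Syngr3, a synaptogyrin of the vesicle membrane (ENSMUSG00000007021, chromosome 17, 24685092 to 24689955), differed least. It had 149, 145, 167, 150.4 and 164 CPM in 24mSC and 142, 137, 140.1, 132 and 137 CPM in 24mEE. The groups were separate by a narrow margin, with a log2 fold change of −0.17 ± 0.11 (edgeR adjusted p = 0.993).

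Doc2b, the paralogue of Doc2a (ENSMUSG00000020848, chromosome 11, 75768966 to 75796049), differed in the other direction. It had 114, 118, 108, 120.4 and 124 CPM in 24mSC and 137, 130.4, 176, 181 and 156 CPM in 24mEE. All enriched libraries were above all standard ones, with means of 117 ± 6.17 and 156 ± 22.7 CPM (SD, n = 5 each) and a log2 fold change of 0.42 ± 0.13 (edgeR adjusted p = 0.464). Syt12, a synaptotagmin that lacks calcium binding (ENSMUSG00000049303, chromosome 19, 4445908 to 4477447), had 23.7, 22.9, 25.4, 24.9 and 21.7 CPM in 24mSC and 26.2, 27.3, 35.6, 28.2 and 29.2 CPM in 24mEE. The groups were separate, with a log2 fold change of 0.30 ± 0.12 (edgeR adjusted p = 0.653), and 17.2% of its exons overlap an antisense gene.

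Cplx3, a complexin found in retina and in deep cortical neurons, had the largest fold change of the 42 genes in this comparison. Its levels were low, at 7.80, 10.3, 11.4, 9.72 and 6.33 CPM in 24mSC and 2.18, 7.87, 2.27, 2.61 and 3.57 CPM in 24mEE. Only 24mEE replicate 2 reached the range of 24mSC, and the log2 fold change was −1.30 ± 0.43 (edgeR adjusted p = 0.476).

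**Figure D3:**
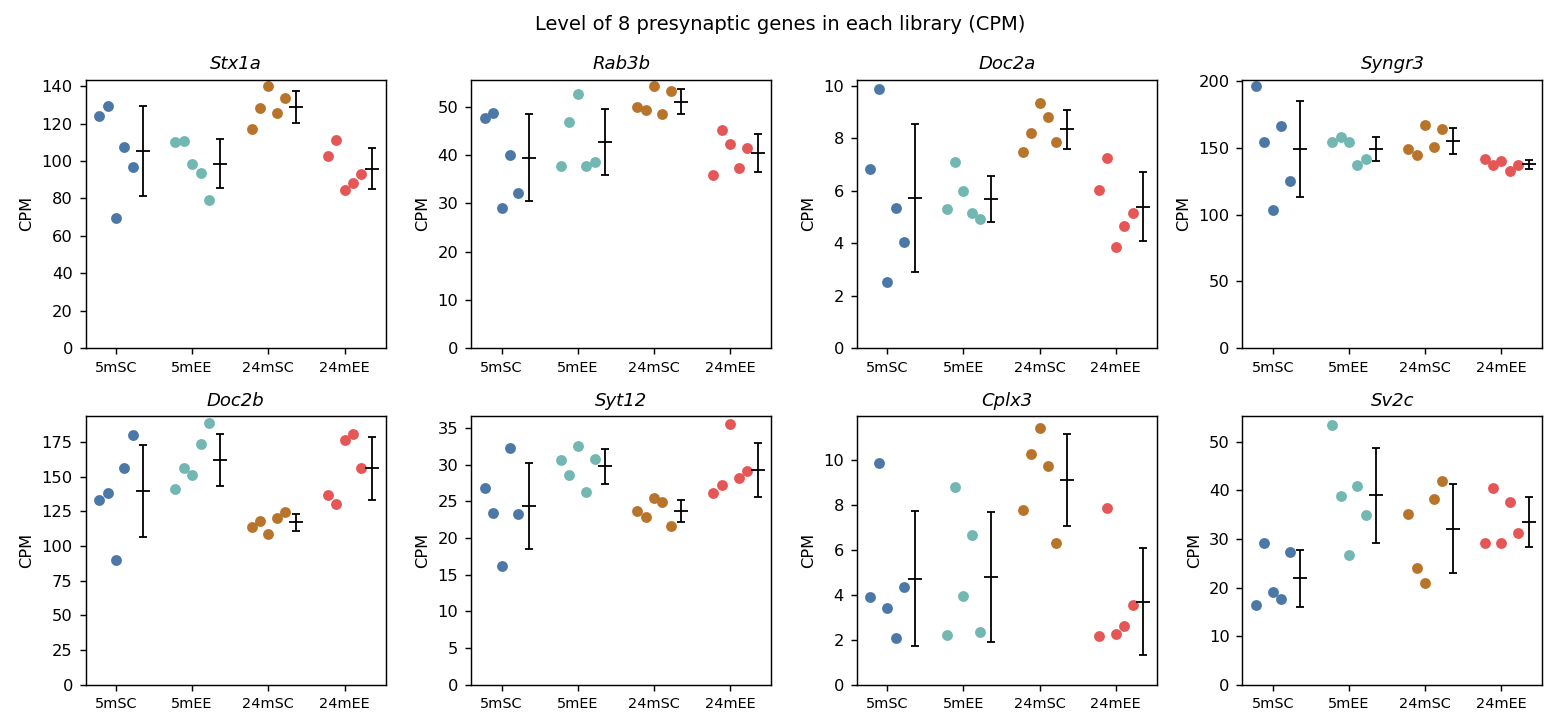
CPM of 8 genes in each library by group (points), with the mean and SD of the group at its right (black dash and bar, n = 5). Stx1a, Rab3b, Doc2a and Syngr3 are lower and Doc2b and Syt12 higher in all libraries of 24mEE than in all of 24mSC; Cplx3 overlaps through 24mEE replicate 2, and Sv2c is plotted for the comparison of young mice.

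Fitted on the 10 old libraries alone, 3 of the 42 genes passed against 1.17% of all 16050 genes: Stx1a (edgeR adjusted p = 0.0251) and Rab3b (0.0329) fell and Doc2b (0.0382) rose. With limma-voom and quality weights over all 20 libraries 5 of 42 passed against 2.27% of all genes, namely Stx1a (limma adjusted p = 0.0187), Doc2b (0.0206), Doc2a (0.0352), Cplx3 (0.0368) and Rab3b (0.0465). The DESeq2 Wald test called 0 of 42 (0.186% of all genes). In the fit of the old libraries, leaving out 1 library at a time gave 0 to 7 genes, the 7 being without 24mEE replicate 2, where 5.41% of all genes passed. Without 24mSC replicate 1, 2 or 5 the gene of the 42 that passed was Stx1a, against 0.241%, 0.513% and 0.432% of all genes, and without replicate 4 it was Stx1a and Rab3b, against 0.827%. The other 5 fits passed 0 of 42 and 0.00617 to 0.00618% of all genes, which is 1 gene each.

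Markers of neurons and of neighbouring tissue moved with these values. The mean log2 CPM of the 10 pan-neuronal markers was 8.57 to 8.61 in 24mSC and 8.46 to 8.56 in 24mEE, without overlap, although 4 of the 10 were higher and 6 lower, with a median log2 fold change of −0.03. The mean of the striatum markers was also without overlap, at 3.45 to 3.68 against 2.92 to 3.43, with 6 of its 9 tested markers lower. The mean of the neocortex markers, members excluded, was 4.41 ± 0.148 in 24mSC and 3.92 ± 0.337 in 24mEE (SD, n = 5 each), with ranges of 4.25 to 4.64 and 3.71 to 4.52. The highest neocortex mean in 24mEE was that of replicate 2. All 11 of the 11 tested markers of the 12 listed (Cplx3 among them) were lower in 24mEE, with a median log2 fold change of −0.48, and none was at 0. Of the 10 dentate granule cell markers, 10 were higher, with a median of 0.33. With the neocortex mean as a covariate in the fit of all libraries, the log2 fold change was −0.19 for Stx1a, −0.16 for Rab3b, −0.11 for Doc2a, −0.34 for Cplx3, 0.34 for Doc2b and 0.26 for Syt12, and 0 of all genes passed. In the old libraries alone with the same covariate the values were −0.27, −0.25, −0.28, −0.49, 0.21 and 0.27, and again 0 of all genes passed. The neocortex mean itself differed between the 2 old groups, which overlapped only through 24mEE replicate 2. A covariate that follows the groups this closely cannot tell tissue from housing, so the smaller fold changes with it do not decide between them. The part of neurons and of neighbouring tissue in these differences was not tested.

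Rims3, Slc17a6 and Syt2 were highest in libraries with high neocortex and subiculum markers, though not in all of these. Rims3, a short RIM protein, was at 132 CPM in 5mSC replicate 2, 105 in 5mEE replicate 2, 137 and 141 in 24mSC replicates 2 and 4 and 131 in 24mEE replicate 2, whereas the other 15 libraries lay between 35.7 and 94.2 CPM. Those 5 libraries had neocortex means of 4.34 to 4.64 and the other 15 means of 3.69 to 4.44. The highest of the 15 was 24mSC replicate 3 at 4.44, above 2 of the 5, with Rims3 at 94.2 CPM and Slc17a6 at 22.3 CPM. Slc17a6 was at 37.4 to 43.3 CPM in the same 5 libraries and at 4.58 to 26.6 CPM in the other 15. Syt2, the synaptotagmin of fast-firing neurons, was at 39.4 to 55.7 CPM in these 5 libraries and at 10.6 to 44.3 CPM in the others. Rims3, Slc17a6 and Syt2 were singled out after their values were seen.

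**Figure D4:**
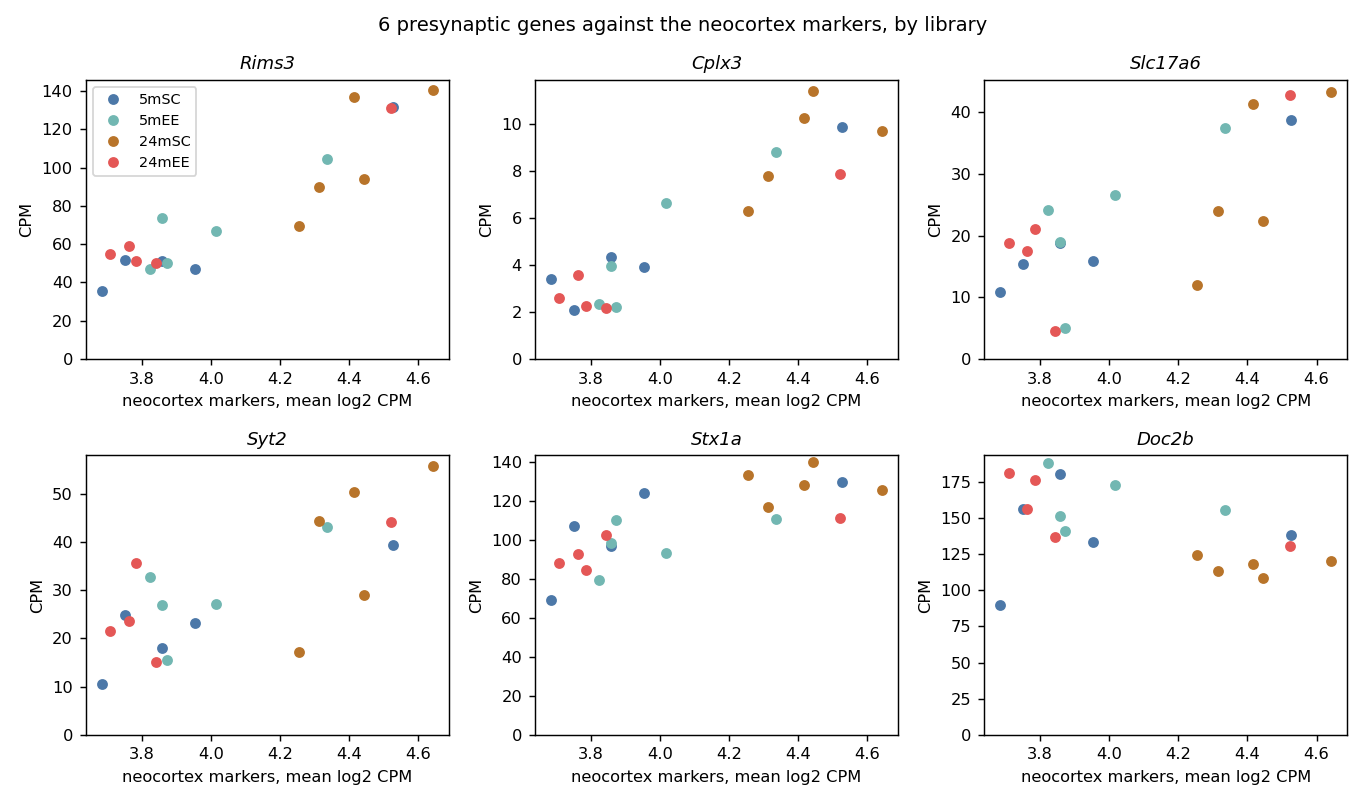
CPM of 6 genes against the mean log2 CPM of the neocortex markers, 1 point for each library, coloured by group. Rims3, Cplx3 and Slc17a6 are highest in libraries with a mean above 4.3 in all 4 groups, whereas Doc2b in the 5 libraries of 24mSC lies between 108 and 124 CPM.

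The comparison of 24mSC with 5mSC addresses age in a standard cage, and it shares the 24mSC libraries with the comparison above. With edgeR 0 of 42 genes passed, against 0.803% of all genes. Limma-voom and the DESeq2 Wald test also passed 0 of 42, although they passed 1.83% and 4.55% of all genes. At an unadjusted p under 0.05, 13 of 42 were higher and 0 lower in 24mSC, against 8.72% and 11.7% of all genes. The groups of 5 overlapped for all 42 genes, against 3.24% of all genes without overlap. The median log2 fold change was 0.23 over the 42 genes and −0.01 over all genes, with 39 genes positive.

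Without 5mSC replicates 1 and 3 the median was 0.07 and 35 of 42 were positive. At an unadjusted p under 0.05, 3 were then higher (Rab3b, Sv2a and Syngr1) and 1 lower, against 9.82% and 10.1% of 16947 genes, so the share of higher genes no longer exceeded the background. The 1 lower gene was Doc2b, which passed in this fit (log2 fold change −0.44, edgeR adjusted p = 0.0405; 2.14% of all genes passed). With all libraries Doc2b differed by −0.26 ± 0.13. Its 5mSC values were 133, 138, 90.1, 156 and 180.3 CPM, of which only replicate 3 fell within or below the range of 108 to 124 CPM in 24mSC. Without replicates 1 and 3 Doc2b was the 1 gene of 42 whose groups did not overlap, against 11% of all genes. These replicates held the lowest Doc2b values of 5mSC. Leaving out either or both raises its 5mSC mean, so the wider difference and the lack of overlap follow in part from that choice.

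Rab3b had the smallest p among the 42. It was at 47.6, 48.8, 28.9, 39.9 and 32.1 CPM in 5mSC and at 48.4 to 54.3 CPM in 24mSC, a log2 fold change of 0.37 ± 0.13 (edgeR adjusted p = 0.121). The difference was 0.35 without 5mSC replicates 1 and 3. Rims2, a RIM scaffold of the active zone, was at 29.7, 70.3, 35.7, 57.9 and 57.5 CPM in 5mSC and at 65.8, 74.4, 66.4, 65.7 and 66.8 CPM in 24mSC. Its 2 low values were those of replicates 1 and 3, and the log2 fold change of 0.43 ± 0.16 (edgeR adjusted p = 0.144) became 0.13 without them. Napb, the beta form of the SNARE-disassembly adaptor SNAP, was at 466, 597, 307, 618 and 501 CPM in 5mSC and at 596, 630.0, 653, 612 and 669 CPM in 24mSC. Its log2 fold change went likewise from 0.34 ± 0.13 (edgeR adjusted p = 0.145) to 0.14. Sv2c, an SV2 glycoprotein of the vesicle membrane, was at 16.4, 29.1, 19.2, 17.7 and 27.4 CPM in 5mSC and at 35.2, 24.1, 20.96, 38.2 and 41.9 CPM in 24mSC, a log2 fold change of 0.55 ± 0.21 (edgeR adjusted p = 0.150) and 0.38 without the 2 libraries.

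Leaving out 5mSC replicate 2, the library of its group with the highest neocortex mean (4.53 against 3.69 to 3.95), let 5 of 42 genes pass, namely Rab3b, Rims3, Doc2a, Cplx3 and Rims2, against 6.67% of all genes. Without replicate 3 alone it was 1 (Doc2b), against 3.58%. At an unadjusted p under 0.05, 5 of 42 were then higher and 1 lower, against 1783 and 1952 of 16755 genes. The neocortex mean was 3.96 ± 0.336 in 5mSC and 4.41 ± 0.148 in 24mSC (SD, n = 5 each), and with it as a covariate 0 of 42 passed (0.174% of all genes) and the median log2 fold change of the 42 was 0.12. Because the neocortex mean differed between these groups too, the covariate cannot tell tissue from age. Of the 10 pan-neuronal markers 9 were higher in 24mSC, with a median of 0.13.

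The comparison of 5mEE with 5mSC asks the same of young mice. With edgeR 0 of 42 genes passed, as did 0% of all genes. At an unadjusted p under 0.05, 7 were higher and 0 lower, against 6.52% and 10% of all genes, and the groups overlapped for all 42 genes (1.62% of all genes did not overlap). Without 5mSC replicate 3 alone, 5 of 42 were higher and 1 lower, against 791 and 1347 of 16755 genes. Without 5mSC replicates 1 and 3, 1 of 42 was higher and 0 lower, against 2.28% and 4.44%. The median of the 42 genes moved from 0.16 to 0.07.

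Sv2c had the smallest p of the 42. It was at 16.4, 29.1, 19.2, 17.7 and 27.4 CPM in 5mSC and at 53.3, 38.9, 26.7, 40.8 and 34.9 CPM in 5mEE. In 5mEE replicate 3 alone overlapped the standard group, and the means were 21.95 ± 5.87 and 38.9 ± 9.69 CPM (SD, n = 5 each). The log2 fold change was 0.83 ± 0.20 (edgeR adjusted p = 0.223) and 0.67 without 5mSC replicates 1 and 3 (edgeR adjusted p = 0.615). The DESeq2 Wald test put it at an adjusted p of 0.0484, the 1 gene of the 42 that it called in this comparison (0.18% of all genes). In old mice Sv2c was at 32.1 ± 9.12 CPM in 24mSC and 33.5 ± 5.21 CPM in 24mEE.

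The next genes were Napb and the active zone genes Pclo and Unc13a, which encode piccolo and the priming factor Munc13-1. Napb was at 659, 612, 653, 654 and 577 CPM in 5mEE, with a log2 fold change from 5mSC of 0.34 ± 0.13 (edgeR adjusted p = 0.231). Pclo was at 196, 359, 239, 391 and 303 CPM in 5mSC and at 365, 392, 440.4, 403 and 329 CPM in 5mEE (0.37 ± 0.14, edgeR adjusted p = 0.242). Unc13a was at 281, 383, 319, 432 and 374 CPM in 5mSC and at 393, 428, 430.0, 436 and 431 CPM in 5mEE (0.24 ± 0.10, edgeR adjusted p = 0.2496). For these 3 genes replicates 1 and 3 were the 2 lowest of 5mSC, and without them the log2 fold changes were 0.14, 0.13 and 0.09.

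**Figure D5:**
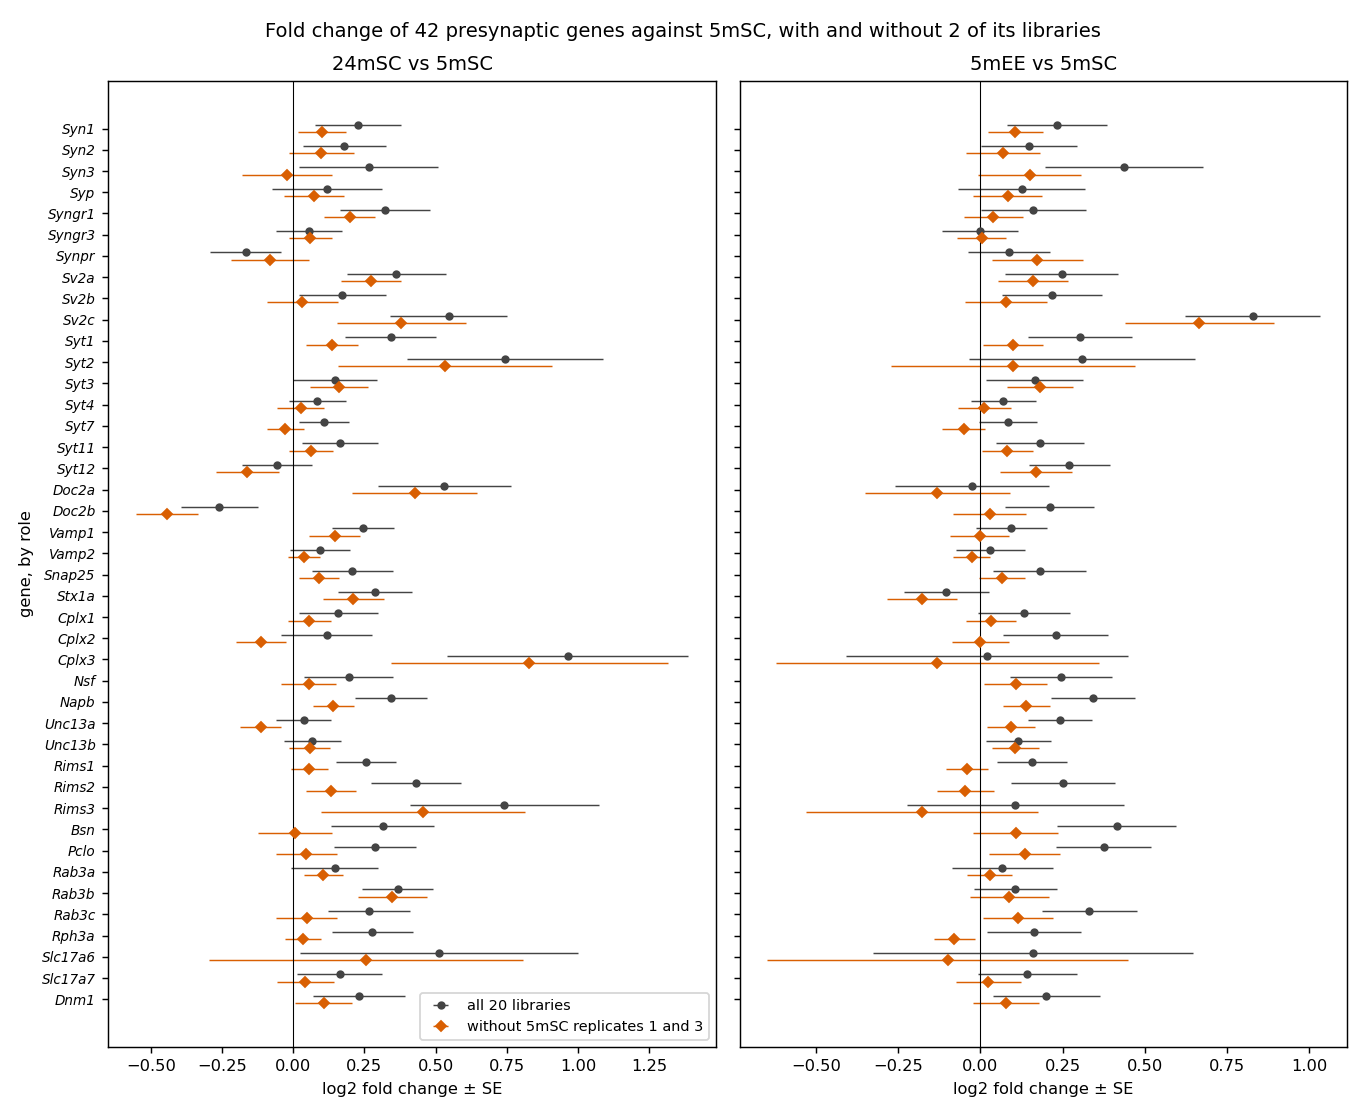
Log2 fold change with its SE of each of the 42 genes (by role) in 24mSC and in 5mEE, both against 5mSC, from all 20 libraries (grey circles) and without 5mSC replicates 1 and 3 (orange diamonds). Most diamonds lie nearer to 0 than their circles; Doc2b against 24mSC moves away from 0, from −0.26 to −0.44.

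Between 24mEE and 5mEE, the comparison of age among enriched mice, edgeR passed 0 of 42 genes (0.108% of all) and 0 of 42 had an unadjusted p under 0.05 (4.61% of all). The smallest p was that of Syt7, the slow calcium sensor of facilitation, at a log2 fold change of 0.15 ± 0.09. All 10 vesicle membrane genes had negative values, between −0.22 and −0.02, none of which passed. Negative values were not particular to them. Over the 42 genes 31 were negative and 11 positive, with a median of −0.045, against −0.002 over all genes. Of the 10 pan-neuronal markers 8 were lower and 2 higher in 24mEE, with a median log2 fold change of −0.12. The interaction of age and environment passed 0 of 42 (0% of all). At an unadjusted p under 0.05 it had 0 of 42 positive and 5 negative (4.4% and 3.61% of all genes), the 5 being Sv2c, Rab3b, Rab3c, Cplx3 and Napb, with edgeR adjusted p = 0.621 for each. Without 5mSC replicates 1 and 3 it had 2 positive (Doc2b and Syt7) and 2 negative (Rab3b and Sv2a), against 4.66% and 4.6% of all genes, and again 0 of 42 passed (0.0059% of all). Of the 5 negative genes only Rab3b was still among them. Without 5mSC replicate 3 alone the interaction had 1 positive and 5 negative, against 789 and 741 of 16755 genes.

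Paralogue ratios do not depend on the scaling of a library. The log2 ratios of 8 pairs were compared in 3 comparisons by exact two-sided permutation tests over all arrangements of the 10 libraries. The smallest possible p is 0.00794, and adjustment was over the 24 tests. After that adjustment a single ratio at the smallest possible p stays above 0.05, whatever the size of its shift. A ratio could pass only if several reached that p together. None passed, which therefore does not show that no ratio differed. The smallest p were in 24mEE against 24mSC, where the log2 ratio of Rab3b to Rab3a was −3.59 ± 0.188 against −3.34 ± 0.0458 and that of Unc13b to Unc13a −2.46 ± 0.149 against −2.20 ± 0.101 (SD, n = 5 each; exact permutation p = 0.0238 and adjusted p = 0.286 for both). The ratio of Slc17a6 to Slc17a7 varied most within a group, with an SD of 1.31 in 24mEE. The 24 adjusted p ranged from 0.286 to 0.992. Without 5mSC replicates 1 and 3 none passed either, under a limit that was stricter in the comparisons with 5mSC. There too a single ratio at the smallest possible p could not pass alone. In the comparisons with 5mSC, whose smallest possible exact permutation p is then 0.0179, the smallest was that of Sv2b to Sv2a in 24mSC, at 0.21 ± 0.107 (SD, n = 5) against 0.44 ± 0.132 in 5mSC (SD, n = 3; exact permutation p = 0.0179, adjusted p = 0.190).

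Other genes of the same pathway were counted from 4 lists of 84 genes (fusion and SNARE regulation, active zone, vesicle proteins and transporters, endocytosis), of which 81 were tested. With edgeR 0 of 81 passed in any comparison. At an unadjusted p under 0.05 there were 2 higher and 6 lower in 24mEE against 24mSC, against 2.22% and 3.99% of all genes. In 24mSC against 5mSC there were 11 higher and 3 lower (8.72% and 11.7% of all genes), and 5 higher and 4 lower without 5mSC replicates 1 and 3 (9.82% and 10.1%). In 5mEE against 5mSC there were 16 higher and 0 lower (6.52% and 10% of all genes), and 0 higher and 0 lower without the 2 libraries (2.28% and 4.44%). Without 5mSC replicate 3 alone, 4 were higher and 6 lower in 24mSC, against 1783 and 1952 of 16755 genes. In 5mEE 4 were then higher and 2 lower, against 791 and 1347. In the fit of the old libraries 1 passed (1.17% of all genes), the synuclein Sncb, at 273 ± 20.2 CPM in 24mSC and 217 ± 19.2 CPM in 24mEE (log2 fold change −0.33, edgeR adjusted p = 0.0382). With limma-voom Sncb, Vat1l and Unc13c passed in this comparison (limma adjusted p = 0.0352, 0.0401 and 0.0372; 2.27% of all genes), and the DESeq2 Wald test called Dnm3 in 24mSC against 5mSC (adjusted p = 0.0353; 4.55% of all genes).

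The smallest p in 24mEE against 24mSC were those of Vat1l (log2 fold change −0.67 ± 0.20), Unc13c, a Munc13 best known from cerebellum (−1.13 ± 0.38), and the endocytic adaptor Fcho1 (−0.18 ± 0.07), with edgeR adjusted p of 0.388 to 0.653. With age in standard cages they were the dynamin Dnm3 (0.36 ± 0.11), the monoamine transporter Slc18a2 (−0.37 ± 0.13) and the endophilin Sh3gl1 (−0.26 ± 0.09), with edgeR adjusted p of 0.0829 to 0.119. Without 5mSC replicates 1 and 3 these log2 fold changes were 0.27, −0.19 and −0.27. In young enriched mice they were the syntaxin-binding tomosyn Stxbp5 (0.23 ± 0.08) and the active zone genes Cask (0.25 ± 0.09) and Erc2 (0.34 ± 0.13), with edgeR adjusted p of 0.225 to 0.236, and without the 2 libraries they were at 0.14, 0.09 and 0.17.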

How the data were processed

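Counts were analysed as the authors deposited them: whole numbers of single-end reads for each Ensembl gene, counted by featureCounts 1.4.6-p4 after alignment to GRCm38 with STAR 2.4.1d (base calls from bcl2fastq 1.8.2, per the submitters' processing notes), from a kit that does not mark the strand. Deposited RPKM values were not used. Genes were filtered with filterByExpr (least count 10, least total 15), scaled by TMM and fitted in edgeR 4.0.16 (R 4.3.3) as 4 groups over 20 libraries, with Benjamini-Hochberg adjustment over all 16692 genes and a threshold of 0.05; the biological coefficient of variation was 17.4%. The script was tested on simulated data. SE were derived from the F statistic. Marker means are log2(CPM + 0.25) over listed markers with a mean CPM of at least 0.5. Alternatives used DESeq2 1.42.0, limma 3.58.1, other filters, covariates and left-out libraries. Members and lists were chosen with earlier results of these data known. Values are given for members passing, members without overlap and the 4 smallest p in each of 3 comparisons, and for the 3 smallest p among other genes. Replicate numbers follow accession order. The study's own tests included the sequencing run as a term, but the labels used here name no run, so every fit leaves it out. Library totals of 11 to 34.1 M counts limit precision for counting error only, and reads shared with overlapping or similar genes cannot be assigned.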

Additional observations from a re-analysis of the deposited data

Results flagged for a closer look

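Of 168 sets of 5 libraries (42 genes in 4 groups), 12 held a library whose gap to its nearest neighbour exceeded Dixon's 95% value of 0.71 of the range, where chance gives about 1 in 20. The markers of neighbouring cortex were high in several of these libraries. In 24mEE replicate 2 (neocortex mean 4.52) Cplx3 was at 7.87 CPM, Rims3 at 131 CPM and Rph3a, which encodes rabphilin, at 502 CPM. In 5mSC replicate 2 (neocortex mean 4.53) Rims3 was at 132 CPM and Slc17a6 at 38.8 CPM. In the 2 standard-cage libraries described as standing apart, Syn3 was at 2.27 CPM in replicate 1 and the SNARE-disassembly ATPase Nsf at 591 CPM in replicate 3. Others were Syt4 in 24mSC replicate 4 (190.4 CPM), Rims2 in 24mSC replicate 2 (74.4 CPM), Syt11 in 24mEE replicate 4 (738 CPM), Vamp2 in 24mEE replicate 1 (1130.1 CPM) and Unc13a in 5mEE replicate 1 (393 CPM).

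For 3 genes every enriched library lay on 1 side of the standard-cage mean at 24 months and on the other side at 5 months. No share of all genes meeting this rule is given, so the 3 cannot be set against a background. Rab3c had a log2 fold change of −0.13 in old and 0.33 in young mice, Snap25 of −0.082 and 0.18, and Syt11 of −0.067 and 0.18. The interaction term gave edgeR adjusted p = 0.621, 0.704 and 0.706 for these genes. The young standard-cage means include replicate 3, in which the 42 genes had a median of −0.88 on the log2 scale from their own level. Without 5mSC replicates 1 and 3 the values in young mice were 0.11, 0.067 and 0.081, and the interaction gave edgeR adjusted p = 0.634, 0.651 and 0.688.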

How the results depend on the processing

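No paired analysis was possible because the labels give no replicate numbers. Of the alternatives for the counts of genes passing, 173 gave the main count and 11 another. For 24mEE against 24mSC, 3 genes passed in the fit of the old libraries and 5 with limma-voom and quality weights, and leaving out 1 library gave 0 to 7 (0 in the fit of all libraries). For 24mSC against 5mSC, 1 passed without 5mSC replicates 1 and 3, and leaving out 1 library gave 0 to 5. The 5 were without 5mSC replicate 2, and 1 passed without replicate 3 (Doc2b). For 5mEE against 5mSC, 1 passed with the DESeq2 Wald test. No paralogue ratio passed under any of its alternatives, with the smallest adjusted p at 0.0952. In the main tests a single ratio could not have passed alone. Of the 535 values for named genes under alternatives, 513 stayed on the same side of the threshold, 22 crossed it and 0 reversed. Fits of the old libraries with covariates or with 1 library left out, fits without a library of another group, and overlaps without 2 of the 5mSC libraries were chosen after seeing the data. With the covariate for neocortex or for dentate markers, none of the presynaptic genes described here passed in any comparison. Other genes did pass in some comparisons. In 24mSC against 5mSC 0.174% of all genes passed with the neocortex covariate. With the dentate covariate 43 of 16692 genes passed as higher and 30 as lower in that comparison. For 24mEE against 24mSC 0 of all genes passed with either covariate in the fit of all libraries. Where a call changed, the cause was not tested. The depth limits the low genes most: Cplx3, Doc2a and Syn3 lay under 12 CPM in every library.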
